A study of Daphnia magna with 15 samples.

Results

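The haem peroxidases of the water flea *Daphnia magna* were described across 5 diets at 15 °C. Members are the genes whose product name in the authors' annotation contains peroxidasin, chorion peroxidase, thyroid peroxidase or dual oxidase, together with KZS15908.1, which the annotation lists as uncharacterized and the paper names an animal haem peroxidase. The rule gave 19 of 26646 genes. Of these, 12 are chorion peroxidases, 3 are dual oxidases, 1 is a peroxidasin and 1 is KZS15908.1, and 0 are named thyroid peroxidase. A further 2 genes, KZS15011.1 and KZS14592.1, match the rule because they are named dual oxidase maturation factors; such factors are partners of dual oxidases and are not peroxidases themselves. The paper singled out KZS15908.1 for its response to eicosapentaenoic acid (EPA) in libraries that include these, so its values are given here as a description without a test. Counts of members called refer to the 18 genes chosen by name.

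All animals were females of clone P132.85, kept at 15 °C and frozen whole when the first clutch of eggs lay in the brood pouch. They were fed the green alga *Acutodesmus obliquus* (GA) or the cyanobacterium *Synechococcus elongatus* (CY), each without or with EPA delivered in liposomes (GA + EPA, CY + EPA), or *Cryptomonas* (CRY), which contains EPA by nature. By the study's methods, the CY diets also received cholesterol and an omega-3 fatty acid, ALA, that the methods write as alpha linoleic acid. The basal food and these supplements therefore cannot be told apart when CY is compared with another diet. Each group has 3 libraries, each from a pool of 3 animals by one label and of 5 by another, and all come from 1 clone. The study's methods describe replicate vessels for each condition but do not cover the CRY animals, and p-values measure the spread between these pools. The methods also state that the green algal group sequenced without EPA received empty liposomes, whereas its labels name the food alone.

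Haem peroxidases hold an iron-bound haem with which they use hydrogen peroxide to oxidise proteins, halides or small molecules. In animals, many act outside the cell, where they crosslink proteins: peroxidasin links collagen IV in basement membranes, and chorion peroxidase hardens the eggshell of *Drosophila*. Dual oxidases make hydrogen peroxide at the cell surface and carry a peroxidase-like domain, and in *Drosophila* they take part in the defence of the gut.

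Expected counts summed to between 18062681 and 22287959 per library. Levels are given as CPM (counts scaled to a common library size, after TMM) when a gene is compared between libraries, and as FPKM (fragments per kilobase and library size) when genes are compared with each other. CRY replicate 2 stood apart from the other libraries: 166 genes were above 1 CPM there and more than 3 times above every other library, against at most 8 genes in any other library, and 2 of these 166 are members. For comparisons that use CRY, counts of members called are therefore also given without it. In whole animals, a change in the number of cells of a type and a change in RNA per cell cannot be told apart.

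The members spanned a wide range of levels. KZS15908.1 had the highest mean over the 15 libraries, 161.3 FPKM, followed by the chorion peroxidase KZS04027.1 with 45.4 FPKM and the peroxidasin KZS10831.1 with 42.6 FPKM. The chorion peroxidase KZS16379.1 had a mean of 19.5 FPKM and the dual oxidase KZS20913.1 one of 17.7 FPKM. These 5 genes held 89.8% of the summed FPKM of all 19. The 2 maturation factors KZS14592.1 and KZS15011.1 had means of 8.60 and 2.49 FPKM. At the low end, 7 members had a mean of at most 1 FPKM, among them the putative dual oxidase KZS17015.1 and the chorion peroxidase KZR99308.1, the latter listed at 0 in all 3 GA + EPA libraries. By mean CPM, the highest diet was CRY for 7 genes, GA for 6, CY + EPA for 4, GA + EPA for 2 and CY for 0, and CRY was also the lowest for 7. Without CRY replicate 2, CRY was the highest for 5 genes, CY + EPA for 6 and GA for 6, and CRY was the lowest for 5; KZS17015.1 and KZR99308.1 were the 2 genes whose highest diet was no longer CRY.

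**Figure D1:**
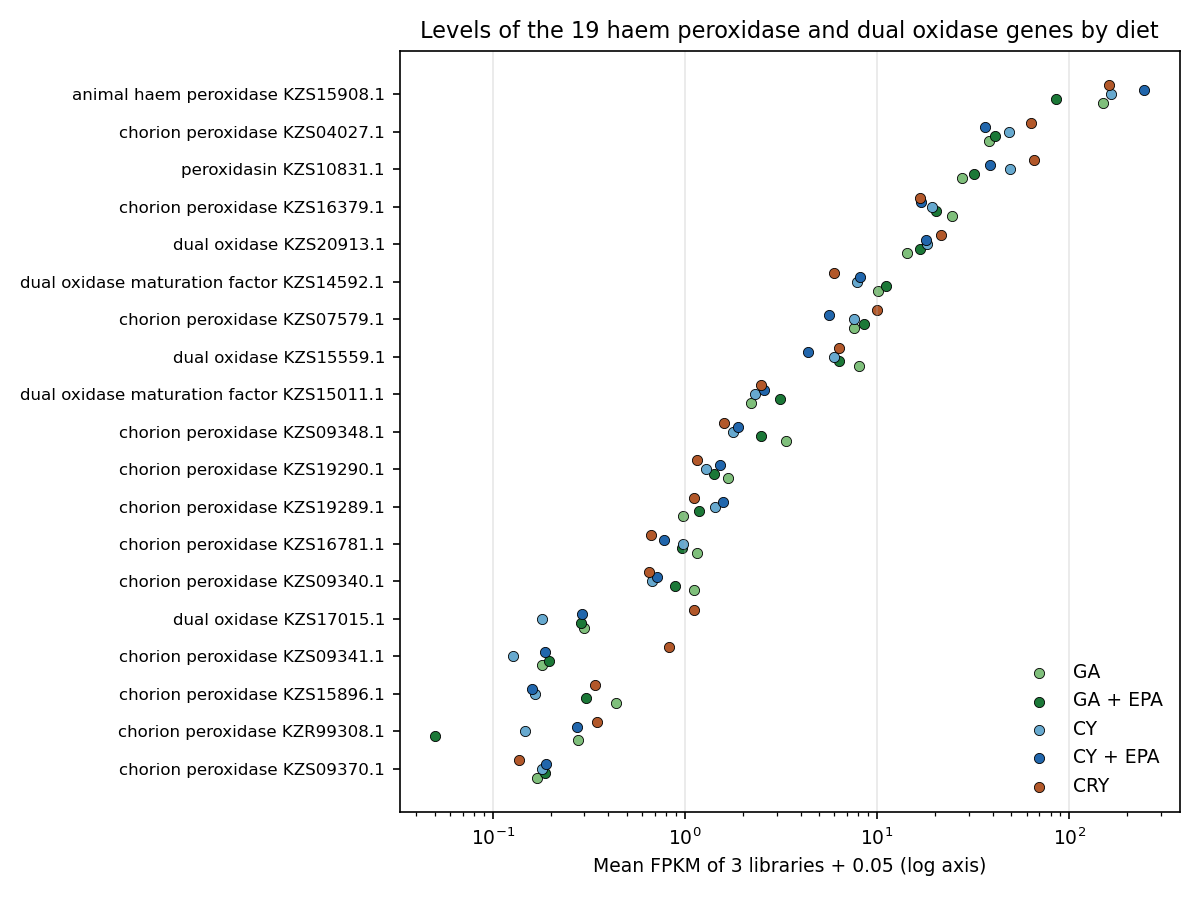
Mean FPKM of each of the 19 genes on the 5 diets, with 0.05 added to each mean and a log axis; each point is the mean of 3 libraries and each row is 1 gene, sorted by its mean over the 15 libraries. KZS15908.1 lies highest, 12 genes have a mean above 1 FPKM over the 15 libraries, and the points of CRY for KZS17015.1 and KZS09341.1 lie far to the right of the other diets because of CRY replicate 2.

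KZS15908.1 lies on scaffold LRGB01000782.1 (assembly v2.4) from base 218 to 2575 on the plus strand and is the only annotated gene there. Its level was lowest on GA + EPA, with 137.1, 150.4 and 150.2 CPM. It was higher on GA, with 275.5, 278.7 and 207.6 CPM. On CRY it measured 290.9, 309.1 and 322.1 CPM, and on CY 299.4, 312.0 and 342.6 CPM. The highest values were those on CY + EPA, with 461.4, 506.9 and 436.2 CPM. The order of the diets was thus GA + EPA, GA, CRY, CY and CY + EPA; neighbours in this order did not overlap, with the exception of CRY and CY.

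The supplement went with opposite differences on the 2 basal foods. GA + EPA lay below GA by a log2 fold change of -0.79 (standard error, SE, 0.13, from 145.9 ± 7.63 against 253.9 ± 40.1 CPM, SD, n = 3). CY + EPA lay above CY by 0.55 on the log2 scale (SE 0.10, from 468.1 ± 35.8 against 318.0 ± 22.2 CPM, SD, n = 3). These are the contrasts for which the gene was chosen, and the paper had already described a contrast between the basal diets for it. The CRY animals also received EPA with their food, and the 3 CRY libraries lay within 290.9 to 322.1 CPM, above GA and GA + EPA and below CY + EPA. The log2 fold change of CRY was 0.28 (SE 0.11) against GA, 1.10 (SE 0.09) against GA + EPA and -0.59 (SE 0.08) against CY + EPA. Against CY it was -0.03 (SE 0.09) and turned to 0.02 without CY replicate 3.

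**Figure D2:**
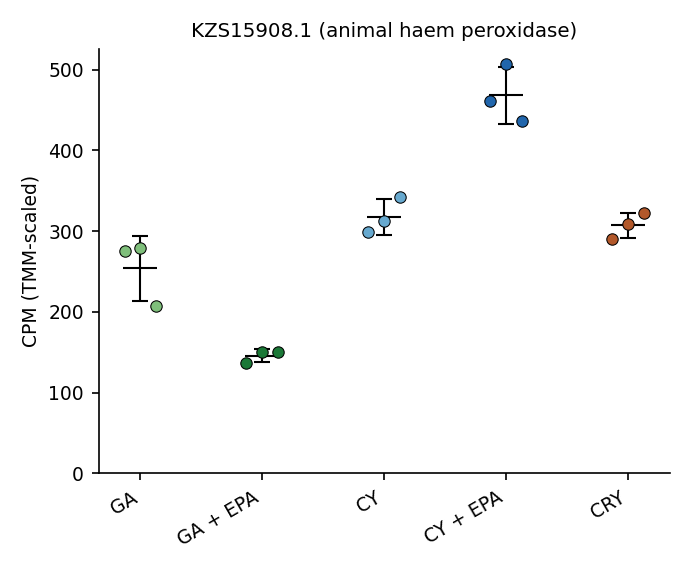
CPM of KZS15908.1 in each library by diet, as points, with the mean and SD of 3 libraries as a bar with whiskers. The GA + EPA libraries lie at 137.1 to 150.4 CPM and the CY + EPA libraries at 436.2 to 506.9 CPM, with the other 3 diets between them.

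The 5 genes whose log2(CPM + 0.5) followed KZS15908.1 most closely over the 15 libraries, among 13007 genes at a mean level of 1 CPM or more, were KZS13030.1 (uncharacterized, Pearson r = 0.96), KZS18276.1 (mitochondrial inner membrane protein OXA1L, r = 0.94), KZS11284.1 (putative venom allergen, r = 0.94), KZS20121.1 (uncharacterized, r = 0.92) and KZS08048.1 (carnitine O-palmitoyltransferase, r = 0.91). The libraries share their diet groups, and the genes were picked for their r. KZS13030.1 had means of 11.5 CPM on GA + EPA and 33.5 CPM on CY + EPA, and thus spanned about as wide a range of levels as KZS15908.1. OXA1L, which inserts proteins into the inner mitochondrial membrane, spanned a narrower range, from 36.9 to 53.8 CPM. The palmitoyltransferase, which acts in the transfer of fatty acids to carnitine, ranged from 44.1 to 55.5 CPM.

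KZS15908.1 belongs to artNOG02021, a group of related arthropod genes that the annotation describes as animal haem peroxidase and that holds 9 genes here. Of the 8 others, 1 is a member, KZS15559.1, annotated as dual oxidase 2. KZS15559.1 was not higher with EPA on either food: its values were 42.7, 45.9 and 44.8 CPM on GA against 28.7, 35.0 and 41.2 CPM on GA + EPA, and 34.8, 39.5 and 37.1 CPM on CY against 27.5, 19.5 and 33.3 CPM on CY + EPA. The libraries with EPA lay below those without it on both foods, and neither difference was called (log2 fold change -0.34, SE 0.14, edgeR adjusted p = 0.267 on GA; -0.48, SE 0.19, adjusted p = 1.0 on CY). Of the other 7 relatives, KZS12450.1 had the smallest adjusted p with EPA on GA (log2 fold change 1.14, SE 0.31, edgeR adjusted p = 0.150) and was not called.

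Among the 18 members chosen by name, EPA gave no call on either food. On GA, 0 of 16 tested members were called by edgeR at an adjusted p of at most 0.01, where 0.0% of the 14353 tested genes were called; at an unadjusted p up to 0.05 the count was 3 of 16, beside 18.4% of tested genes, and DESeq2 called 0 members, beside 2.51% of genes. The 3 members were the dual oxidase KZS20913.1, higher with EPA (log2 fold change 0.24, SE 0.07), and KZS15559.1 and the chorion peroxidase KZS09348.1, both lower (-0.43, SE 0.13 for the latter). On CY, 0 of 14 were called, beside 0.0% of genes, with 1 of 14 at an unadjusted p up to 0.05 beside 1.93% of genes, and 0 with DESeq2, beside 0.0282%. For the difference between the EPA effects on GA and CY, 0 of 16 were called, beside 0.0% of genes, and 0 of 16 had an unadjusted p up to 0.05, beside 10.8% of genes, with 0 called by DESeq2, beside 0.297%. The median log2 fold change of the tested members was 0.14 on GA, where that of all genes was 0.00, and -0.01 on CY, where that of all genes was -0.02.

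The calls among the members lay between CRY and GA. The spread within groups that edgeR estimated over all genes, as a coefficient of variation, was also smallest there. It was 0.136, against 0.188 to 0.236 in the other comparisons. On CRY, 3 of 15 tested members were called, all higher: the peroxidasin KZS10831.1, the dual oxidase KZS20913.1 and the chorion peroxidase KZS04027.1. Of all 14303 tested genes, 16.2% were called, 6.62% higher and 9.59% lower, so the share of members called (3 of 15) is near that of all genes. These 3 belong to the 5 members with the highest levels. A further 2 members approached the threshold with lower levels on CRY, the maturation factor KZS14592.1 and the chorion peroxidase KZS09348.1, and were called when CRY replicate 2 was left out, which gave 5 of 16 members called, 3 higher and 2 lower, beside 17.1% of genes, and 10 of 16 at an unadjusted p up to 0.05, beside 41.0%. DESeq2 called the same 5 members with all 6 libraries, beside 20.6% of genes. At an unadjusted p up to 0.05 the count was 10 of 15, beside 41.2% of genes, and at an adjusted p of 0.05 or less 7 of 15, beside 30.2%.

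Peroxidasin KZS10831.1 lies alone on scaffold LRGB01001667.1, from base 1061 to 5014 on the plus strand. The gene carries this product name but belongs to artNOG03313, which the annotation describes as phosphate and not as haem peroxidase. Its values on GA were 93.9, 91.8 and 94.0 CPM, the narrowest spread of any diet for this gene. On CRY they were 249.5, 282.6 and 206.8 CPM, so every CRY library lay more than 100 CPM above every GA library. The level was 2.65-fold higher on CRY (log2 fold change 1.40, SE 0.11, edgeR adjusted p = 5.5e-05). This call was kept without any 1 of the 6 libraries, with log2 fold changes between 1.30 and 1.52, and lost when all 15 libraries shared 1 estimate of the spread (adjusted p = 0.0118).

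On CY, peroxidasin measured 312.5, 123.7 and 138.1 CPM. These values lay above those of GA, but CY replicate 1 was more than 2 times as high as either other CY library. The log2 difference of CY against GA was 1.01 (SE 0.34, edgeR adjusted p = 0.102) and was not called. Without CY replicate 1 it was 0.48 and called (adjusted p = 0.00691). GA + EPA had 138.2, 84.4 and 101.1 CPM and CY + EPA 173.2, 103.0 and 163.8 CPM. CRY lay above both in every library, with log2 fold changes of 1.23 (SE 0.19, edgeR adjusted p = 0.0158) and 0.77 (SE 0.21, adjusted p = 0.0839) that were not called. Without GA + EPA replicate 1, the difference between CRY and GA + EPA was 1.41 and called (adjusted p = 0.00237).

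The dual oxidase KZS20913.1 lies on scaffold LRGB01000086.1, from base 217132 to 226924 on the minus strand. Its values rose from 97.3, 106.2 and 104.5 CPM on GA to 178.2, 166.7 and 168.5 CPM on CRY, a 1.67-fold difference without overlap (log2 fold change 0.74, SE 0.06, edgeR adjusted p = 8.52e-05). The call held without any 1 of the 6 libraries and with all 15 libraries in 1 fit (adjusted p = 0.00142). GA + EPA had 130.9, 115.3 and 115.6 CPM, between GA and CRY. CY had 179.8, 131.2 and 133.4 CPM and CY + EPA 158.4, 130.7 and 142.7 CPM. CRY against GA + EPA gave a log2 fold change of 0.54 (SE 0.07, edgeR adjusted p = 0.0107), which was called at 0.57 without GA + EPA replicate 1 (adjusted p = 0.0042), and CY against GA gave 0.50 (SE 0.14, adjusted p = 0.0562).

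RSEM gave KZS20913.1 counts that are not whole in 15 of 15 libraries, which means that it split reads with another gene. The sum with its neighbour KZS20914.1, an uncharacterized gene from base 214358 to 215194 on the same strand, was whole within 0.015 in 15 of 15 libraries, and with no other gene in more than 4. The split between these genes is therefore uncertain. Their summed level was 180.8 ± 11.1 CPM on GA and 322.6 ± 17.2 CPM on CRY (SD, n = 3), and KZS20913.1 with the reads of its neighbour added kept its call for CRY against GA (log2 fold change 0.84, edgeR adjusted p = 7.81e-05). With these reads added, CRY against GA + EPA was called as well (0.69, adjusted p = 0.00847).

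The chorion peroxidase KZS04027.1 lies on scaffold LRGB01003146.1, from base 210594 to 214339 on the plus strand. It had 88.1, 86.4 and 105.8 CPM on GA and 170.2, 179.0 and 169.8 CPM on CRY, where the 3 libraries lay close together and above every library of every other diet. CRY was 1.86-fold above GA (log2 fold change 0.89, SE 0.09, edgeR adjusted p = 0.000174). Leaving out any 1 of the 6 libraries kept the call, and with all 15 libraries in 1 fit it was lost (adjusted p = 0.0414). On CY the values were 137.7, 149.4 and 123.1 CPM, above each GA library but not called (log2 fold change 0.52, SE 0.12, edgeR adjusted p = 0.0279). The supplemented diets were more variable, with 58.2, 113.0 and 134.2 CPM on GA + EPA and 100.8, 67.5 and 134.6 CPM on CY + EPA. CRY lay above them by 0.78 (SE 0.30, edgeR adjusted p = 0.138) and 0.79 (SE 0.23, adjusted p = 0.0896) on the log2 scale, and above CY by 0.35 (SE 0.10, adjusted p = 0.269).

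**Figure D3:**
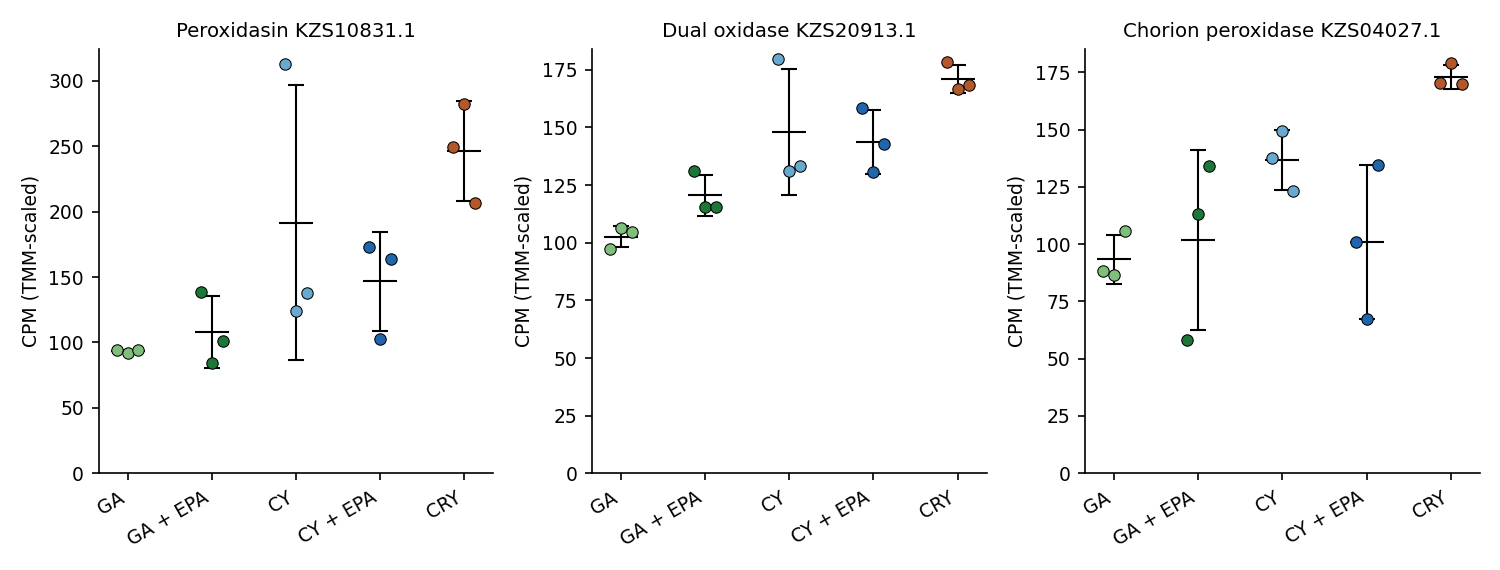
CPM of the peroxidasin KZS10831.1, the dual oxidase KZS20913.1 and the chorion peroxidase KZS04027.1 in each library by diet, as points, with the mean and SD of 3 libraries as a bar with whiskers. In each panel the 3 CRY libraries lie above the 3 GA libraries; CY replicate 1 is the highest point for peroxidasin, at 312.5 CPM.

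Members lower on CRY than on GA included 1 of the 2 maturation factors, chorion peroxidases and the dual oxidase KZS15559.1. None of these was called with all 6 libraries. At an unadjusted edgeR p up to 0.05, 5 of the 15 tested members were lower and 5 higher, beside 41.2% of all genes in either direction. KZS14592.1, a putative maturation factor, had 17.4, 16.2 and 14.6 CPM on GA and 9.40, 12.6 and 9.59 CPM on CRY, without overlap (log2 fold change -0.61, SE 0.14, edgeR adjusted p = 0.0112). Maturation factors carry dual oxidases out of the endoplasmic reticulum in mammals. The difference was not called with all 6 libraries and was called without CRY replicate 2 (-0.75, adjusted p = 0.00155). The other maturation factor, KZS15011.1, ranged from 5.51 to 7.50 CPM on GA and from 7.24 to 10.3 CPM on CRY, which overlapped.

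The chorion peroxidase KZS09348.1 had its highest levels on GA, with 13.8, 14.4 and 12.3 CPM. Every library of the other diets lay below these, from 4.86 CPM in CRY replicate 1 to 11.6 CPM in GA + EPA replicate 1. CRY gave 4.86, 10.4 and 5.96 CPM, with CRY replicate 2 the highest of the 3. The log2 difference of CRY against GA was -0.93 (SE 0.25, edgeR adjusted p = 0.0237), and without CRY replicate 2 it was -1.31 and called (adjusted p = 0.000224). CY against GA gave -0.79 (SE 0.22, adjusted p = 0.0608). The chorion peroxidase KZS09340.1 was also lower on CRY, with 1.363 to 2.271 CPM against 2.668 to 3.095 CPM on GA, and was not called.

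Of the other members, KZS07579.1, a chorion peroxidase precursor, had 5.38, 5.24 and 6.49 CPM on GA and 8.31, 7.45 and 9.71 CPM on CRY (log2 fold change 0.57, SE 0.15, edgeR adjusted p = 0.0205). It too shared reads with another gene in 6 libraries, but the partner KZS07581.1 had at most 0.326 CPM, and the log2 fold change was 0.57 with its reads added. KZS16379.1, a short precursor-like chorion peroxidase and the fourth highest member by FPKM, was lower on CRY, from 27.2, 27.6 and 31.9 CPM on GA to 23.0, 18.5 and 24.5 CPM (log2 fold change -0.39, SE 0.12, adjusted p = 0.0366), and was not called. The dual oxidase KZS15559.1 had 38.6, 42.0 and 35.9 CPM on CRY, below every GA library (log2 fold change -0.19, SE 0.07, adjusted p = 0.0736). Of the 2 measurable genes named dual oxidase, KZS20913.1 was thus called higher, and KZS15559.1 lay below GA without a call. By artNOG, only KZS20913.1 is in a group described as dual oxidase, and KZS15559.1 is in that of KZS15908.1. KZS09341.1 and KZS17015.1, a chorion peroxidase and a putative dual oxidase, had 8.97 and 3.93 CPM in CRY replicate 2 and at most 0.999 and 0.525 CPM in any other library.

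**Figure D4:**
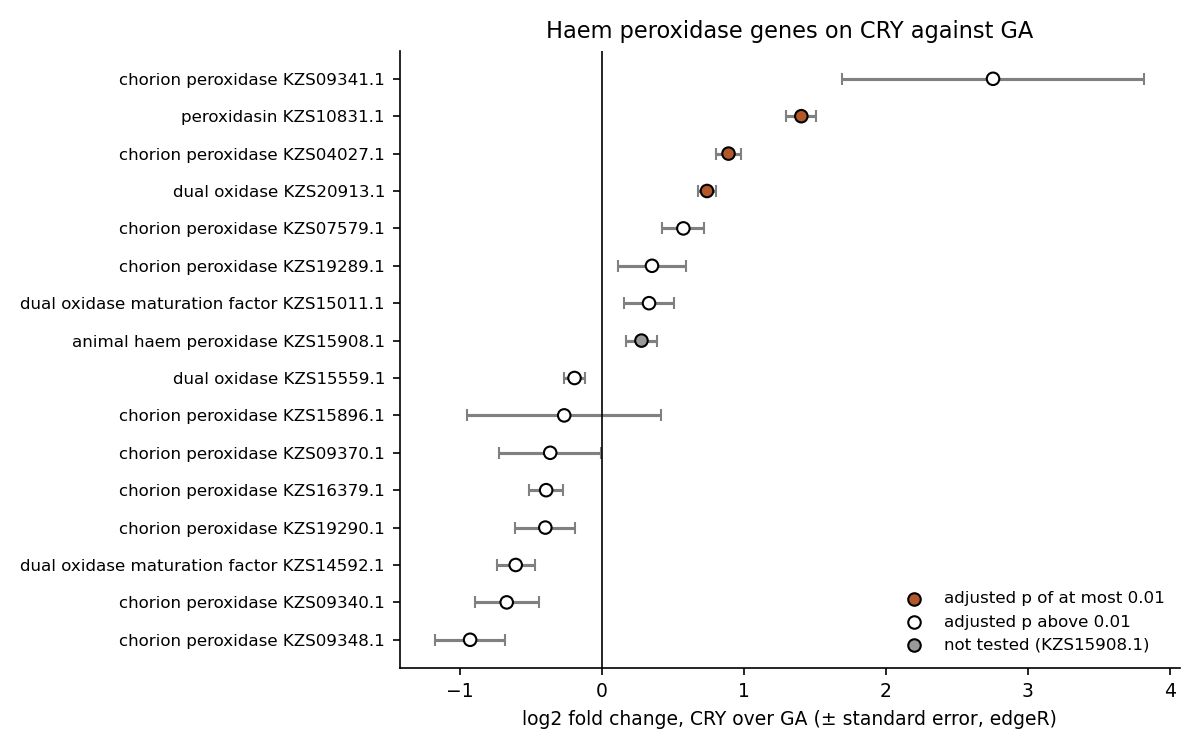
Log2 fold change of CRY over GA with its standard error (edgeR) for the 15 tested members chosen by name and for KZS15908.1, which was not tested; points right of 0 are higher on CRY and filled points in brown were called. Peroxidasin, the chorion peroxidase KZS04027.1 and the dual oxidase KZS20913.1 lie between 0.74 and 1.40, and the wide bar of KZS09341.1 reflects its 1 high library.

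In the other comparisons between diets edgeR called 0 members. For CY against GA it called 0 of 15, beside 5.99% of tested genes, while 8 of 15 had an unadjusted p up to 0.05 (4 higher, 4 lower), beside 29.8% of genes (12.4% higher, 17.4% lower), and DESeq2 called 2, beside 12.6%. At an adjusted p of 0.05 or less, 2 of 15 passed, beside 14.4% of genes. The higher ones were the peroxidasin KZS10831.1, KZS20913.1, KZS04027.1 and the chorion peroxidase KZS19289.1 (log2 fold change 0.71, SE 0.19, edgeR adjusted p = 0.0509), and the lower ones KZS09348.1, KZS09340.1, KZS15896.1 and KZS15559.1. KZS19289.1 had 2.23, 3.17 and 2.46 CPM on GA and 3.91, 4.62 and 4.61 CPM on CY. Its neighbour KZS19290.1 is a chorion peroxidase of the same artNOG group, 2200 bases away on the same strand by the annotated positions. KZS19290.1 overlapped between CY and GA, with a log2 fold change of -0.25 (SE 0.19).

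For CY + EPA against GA + EPA, 0 of 15 members were called, beside 0.147% of genes, and 1 of 15 had an unadjusted p up to 0.05, beside 20.8%, with 0 called by DESeq2, beside 3.56%. For CRY against CY, 0 of 14 were called, beside 0.0% of genes, 2 of 14 had an unadjusted p up to 0.05, beside 15.6%, and DESeq2 called 0, beside 1.14%. For CRY against GA + EPA, 0 of 14 were called, beside 1.57% of genes, 5 of 14 had an unadjusted p up to 0.05, beside 30.5%, and DESeq2 called 2, the peroxidasin and KZS20913.1, beside 9.73%, which are also the 2 that passed at an adjusted p of 0.05 or less, beside 11.0%. For CRY against CY + EPA, 0 of 14 were called, beside 0.162% of genes, 8 of 14 had an unadjusted p up to 0.05, beside 27.4%, and DESeq2 called 1, KZS07579.1, beside 5.62%. Without CRY replicate 2, edgeR again called 0 members in each of these comparisons with CRY. At an unadjusted p up to 0.05 the counts were then 2 of 14 against CY (beside 9.25% of genes, with 0.0% called), 5 of 15 against GA + EPA (beside 25.0%, with 0.192% called) and 7 of 15 against CY + EPA (beside 21.5%, with 0.0347% called). Comparisons that use the same diet share its libraries. Of the 18 members, 13 passed the filter on low counts in every comparison, 3 in some and 2 (KZR99308.1 and KZS17015.1) in none.

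Several members lie in clusters. Scaffold LRGB01002076.1 holds 4 chorion peroxidases (KZS09340.1, KZS09341.1, KZS09348.1 and KZS09370.1), with KZS09348.1 the highest of them by FPKM and 3 below a mean of 1 FPKM. Scaffold LRGB01003146.1 holds the chorion peroxidase KZS04027.1 amid related genes that the rule did not take: KZS04024.1 (peroxinectin), KZS04026.1 (named cardinal), KZS04028.1 and KZS04030.1 (putative peroxinectins) and the uncharacterized KZS04031.1 and KZS04032.1. Peroxinectin is a peroxidase and cell adhesion protein of the blood cells of crayfish. The genes of this cluster did not all move in the same direction between GA and CRY. KZS04027.1, KZS04028.1 and KZS04030.1 were higher on CRY, and KZS04032.1 was lower. KZS04028.1 begins 1748 bases beyond KZS04027.1 by the annotated positions. It had 3.46, 7.75 and 4.71 CPM on GA and 38.6, 25.7 and 40.0 CPM on CRY (log2 fold change 2.72, SE 0.29, edgeR adjusted p = 0.000271). KZS04030.1 had 35.5, 108.9 and 58.7 CPM on GA and 521.8, 354.8 and 584.6 CPM on CRY (2.85, SE 0.38, adjusted p = 0.00099).

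On CY, the putative peroxinectins KZS04028.1 and KZS04030.1 had 37.5, 95.3 and 61.1 CPM and 525.0, 1171 and 977.4 CPM, which overlapped with CRY. They rose against GA by 3.58 (SE 0.43, edgeR adjusted p = 0.00296) and 3.69 (SE 0.49, adjusted p = 0.00414) on the log2 scale. Both calls were lost without CY replicate 3 (adjusted p = 0.0122 and 0.0176), GA replicate 1 (0.0193 and 0.0177) or GA replicate 3 (0.0246 and 0.031), and that of KZS04028.1 also without GA replicate 2 (0.0117), at log2 fold changes of 3.38 or more. RSEM gave each of these putative peroxinectins counts that are not whole in 2 libraries, so reads were split there. The partners were not identified, and whether these genes share reads with each other was not tested. The uncharacterized KZS04032.1 went the other way on CRY (-0.44, SE 0.06, edgeR adjusted p = 0.000959). KZS04024.1 and KZS04026.1 were at or below 1.73 CPM and 0.956 CPM in all libraries but CRY replicate 2.

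**Figure D5:**
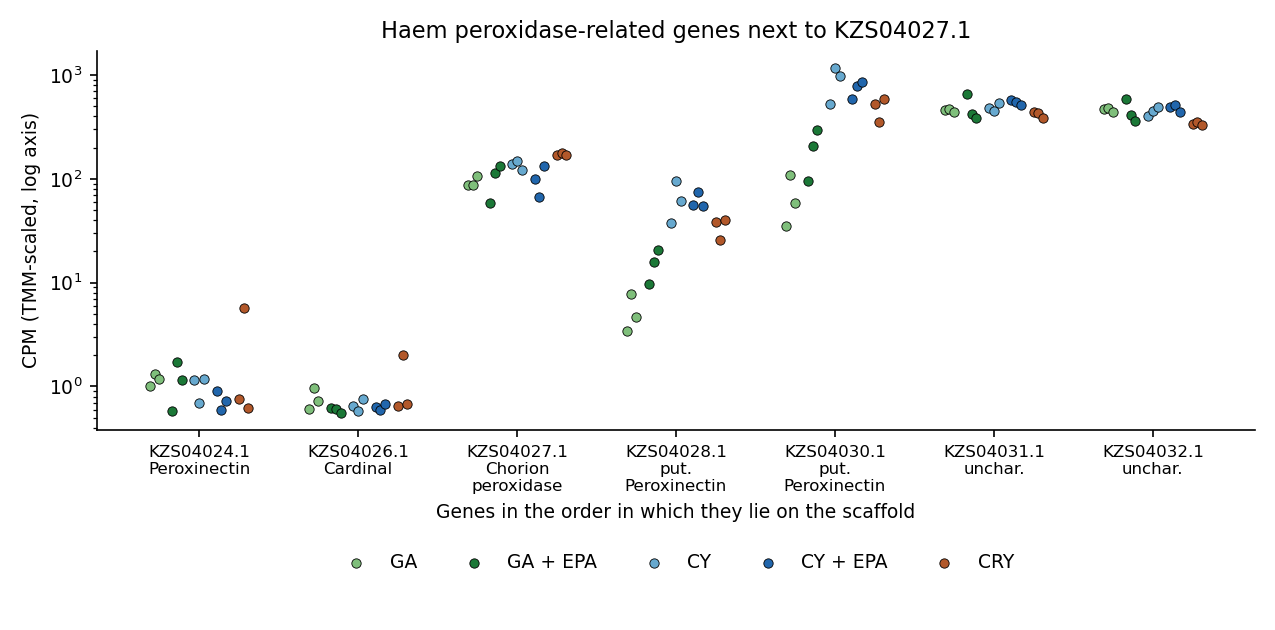
CPM (log axis) of the chorion peroxidase KZS04027.1 and of 6 related genes on the same scaffold, in their order on it, with 1 point per library and the diets by colour; KZS04025.1 and KZS04029.1, which lie between them, are left out. The points of KZS04028.1 and KZS04030.1 on CY, CY + EPA and CRY lie above those on GA, and KZS04024.1 and KZS04026.1 have 1 high point each, CRY replicate 2.

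Other genes of the same chemistry were counted on lists drawn from product names, for CRY against GA, where 16.2% of all genes were called. Of the 11 tested other peroxidases, 3 rose and 2 fell. Besides both putative peroxinectins of the cluster, KZS07486.1, a putative peroxinectin on another scaffold, rose (log2 fold change 0.45, SE 0.06, edgeR adjusted p = 0.00105). The putative cyclooxygenase KZS18300.1 fell (-0.73, SE 0.14, adjusted p = 0.00477), as did KZS13197.1, annotated as lactoperoxidase (-0.52, SE 0.10, adjusted p = 0.00494). Cyclooxygenases are haem enzymes that start prostaglandin synthesis from fatty acids such as EPA. The call of KZS18300.1 was lost without CRY replicate 3 (adjusted p = 0.0145), GA replicate 1 (0.0191) or GA replicate 3 (0.0196), and that of KZS13197.1 without CRY replicate 3 (0.0133), GA replicate 1 (0.017), GA replicate 2 (0.0246) or GA replicate 3 (0.0218). The median log2 fold change of the list was 0.45, where that of all genes was 0.00.

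Among the 6 NADPH oxidases, which share their catalytic core with the dual oxidases, 0 rose and 1 fell by edgeR, while 5 of 6 had an unadjusted p up to 0.05 (4 higher, 1 lower), beside 41.2% of all genes, and DESeq2 called 2 of 6, beside 20.6%. The gene that fell was KZS06127.1, NADPH oxidase 4 (log2 fold change -0.46, SE 0.09, edgeR adjusted p = 0.0072), and it was called in none of the 6 fits that left out 1 library (adjusted p of 0.0116 to 0.0259). Of 9 tested genes that remove peroxide, 2 rose and 3 fell. Catalase KZS10935.1 fell (log2 fold change -0.50, SE 0.05, adjusted p = 0.000287), as did the putative glutathione peroxidase KZS06158.1 (-0.58, SE 0.06, adjusted p = 0.000247). The 2 that rose were glutathione peroxidase 7, KZS21126.1 (0.45, SE 0.06, adjusted p = 0.000826), and peroxiredoxin-6, KZS20220.1 (0.32, SE 0.07, adjusted p = 0.00842). The call of KZS20220.1 was kept without CRY replicate 2 and lost without any other of the 6 libraries (adjusted p of 0.0151 to 0.0359). The medians of the NADPH oxidases and the peroxide-removing genes were 0.39 and 0.00.

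Of 9 genes of the basement membrane, where peroxidasin acts, 3 rose and 1 fell on CRY. The list holds laminin subunits, nidogen-2 and proteoglycan core proteins, but no gene named collagen IV, which peroxidasin links. The 3 that rose are laminin subunits, among them KZS17228.1, laminin subunit beta-1 (log2 fold change 0.54, SE 0.09, edgeR adjusted p = 0.00245), which was not called without CRY replicate 1 (adjusted p = 0.0117) or GA replicate 3 (0.0108). Nidogen-2 KZS19650.1, which joins laminin and collagen networks, fell (-0.64, SE 0.09, adjusted p = 0.00163). Of 8 tested genes of haem synthesis, 0 rose and 3 fell by edgeR, and 1 was higher and 4 lower at an unadjusted p up to 0.05, with 3 called by DESeq2, beside the same 41.2% and 20.6% of all genes. The first enzyme of that pathway, 5-aminolevulinate synthase KZS03430.1, was among the 3 (-0.61, SE 0.09, adjusted p = 0.00203), and its call was lost without GA replicate 1 (0.0116). The medians of these lists were 0.38 and -0.16. Without CRY replicate 2, where 17.1% of all genes were called, the counts higher and lower were 4 and 2 of 11 other peroxidases, 1 and 0 of 6 NADPH oxidases, 2 and 3 of 9 genes of peroxide removal, 3 and 1 of 9 of the basement membrane and 0 and 3 of 8 of haem synthesis. A wider list, added after the data were seen, holds the 47 genes whose artNOG group the annotation describes as animal haem peroxidase and that are not members. Of its 40 tested genes, 7 were called higher and 8 lower on CRY than on GA, beside 6.62% and 9.59% of all genes. The median log2 difference of the 40 was -0.10. At an unadjusted p up to 0.05 the count was 22 of 40, beside 41.2%, and DESeq2 called 18, beside 20.6%. Without CRY replicate 2, 8 were called higher and 8 lower of 41, beside 17.1% of genes in either direction.

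The summed levels of some marker lists, but not of all, differed between CRY and GA, and some differed between other diets as well. The summed level of 18 yolk-related genes, 13 named vitellogenin fused with superoxide dismutase and 5 vitellogenin receptors, was 9110 to 14630 CPM on GA, 24210 to 46420 CPM on GA + EPA, 68170 to 148300 CPM on CY, 76550 to 96630 CPM on CY + EPA and 78970 to 110300 CPM on CRY, so that GA and CRY did not overlap. The 8 globin genes summed to 476.4 to 915.4 CPM on GA and 1745 to 2377 CPM on CRY. They summed to 1020 to 1343 CPM on GA + EPA, 1960 to 2879 CPM on CY and 3054 to 3438 CPM on CY + EPA. The 8 muscle genes were lower on CRY, 1665 to 1776 CPM against 2053 to 2205 CPM on GA. Their sums were 1906 to 1943 CPM on GA + EPA, 1941 to 2258 CPM on CY and 2110 to 2514 CPM on CY + EPA. The sums of the 2 genes of blood cells (170.9 to 251.1 against 136.1 to 196.4 CPM) and the 75 cuticle genes (1198 to 1674 against 1505 to 1800 CPM) overlapped. Gene by gene, edgeR called 4 of 36 tested cuticle genes higher on CRY and 0 lower, beside 6.62% and 9.59% of all genes, with a median log2 fold change of 0.42. Of the blood-cell genes 0 were called, and 2 of 2 were higher at an unadjusted p up to 0.05, beside 41.2% of genes. Without CRY replicate 2 the cuticle calls were 7 higher and 2 lower of 38, beside 17.1%, and 0 blood-cell genes had such a p. No marker of yolk, globins, muscle or blood cells was at or below 3 counts in every library, and 7 of the 75 cuticle genes were. Their part in the differences of the members was not tested.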

How the data were processed

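The 15 libraries hold RNA of whole animals, with 3 libraries on each of 5 diets by the sample labels. Reads were trimmed by the authors with Trimmomatic, mapped by bowtie2 against version 2.4 of the *D. magna* genome and counted per gene by RSEM 1.2.31; whether the libraries kept the strand is not given in the sources used here. The deposited expected counts are RSEM's unnormalised estimates, which hold fractions if a read fits several genes. Deposited FPKM values are divided by effective gene length and library size. Deposited TPM values are scaled to 1 sum per library and were not used. Gene names and positions come from the authors' annotation, which holds 26645 of 26646 genes, and 0 identifiers matched the RefSeq table. For some members the annotated span is shorter than the transcript length that RSEM lists. KZS16379.1, for example, is placed from base 786069 to 786519 and has a listed length of 1451 bases. The positions, and the distances taken from them, therefore need not cover whole transcripts.

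Expected counts were rounded, filtered with filterByExpr, scaled by TMM and compared by glmQLFit and glmQLFTest of edgeR 4.0.16 (R 4.3.3), with only the libraries of the groups compared. P-values were adjusted over all tested genes after Benjamini and Hochberg, and genes with an adjusted p of at most 0.01 were called. The script was tested on simulated data. Members below a mean of 1 FPKM had 18 to 663 counts summed over the 15 libraries, so counting error limits their precision beside the spread between pools.

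The members and lists were chosen with earlier results of these data known. Genes named with values per library are KZS15908.1, members called in any comparison and the highest member of each name class by mean FPKM; further members and listed genes were named after their values were seen. Alternatives were RLE factors, DESeq2 1.42.0, no filter, all 15 libraries in 1 fit, a replicate block, an adjusted p of at most 0.05, limma 3.58.1 on log2(FPKM + 0.1) and each library left out. Diet orders, lists and member counts without CRY replicate 2, and members with the reads of a sharing gene added, were tried after seeing the data.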

Additional observations from a re-analysis of the deposited data

Results flagged for a closer look

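KZS15908.1 differed in opposite directions with EPA on the 2 basal foods, and in each case the 3 libraries with EPA did not overlap the 3 without it. The log2 fold change was -0.79 on GA and 0.55 on CY. The paper, from libraries that include these, had already reported the highest level of this gene with EPA on CY. It also described a contrast between the basal diets for this gene and others. The difference between these effects was not tested here, because the gene was chosen for it.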

How the results depend on the processing

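Of 746 log2 fold changes from the alternatives, over 61 reported values, 745 kept their sign; the exception was KZS15908.1 for CRY against CY, 0.02 without CY replicate 3. The number of members called depended more on the setting. For CRY against GA, where 16.2% of all genes were called, the 3 calls became 5 with DESeq2 (beside 20.6% of genes), 1 with all 15 libraries in 1 fit (5.68%) and 7 at an adjusted p of at most 0.05 (30.2%), and ranged from 3 to 5 when 1 library was left out (9.41% to 17.1%). For CY against GA, where 5.99% of genes were called, the 0 calls became 2 with DESeq2 (12.6%), 1 with all 15 libraries in 1 fit (6.13%) and 2 at an adjusted p of at most 0.05 (14.4%), with 0 to 1 when 1 library was left out (0.783% to 8.73%). For CRY against GA + EPA, where 1.57% of genes were called, 0 became 2 with DESeq2 (9.73%), 1 without a filter (1.48%) and 2 at an adjusted p of at most 0.05 (11.0%), with 0 to 2 when 1 library was left out (0.0411% to 5.71%). For CRY against CY + EPA, DESeq2 called 1 (5.62%, against 0.162% of genes by edgeR). The causes were not tested. Where a fit left 2 libraries in a group, these shared the estimate of the spread with the other group.

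Replicate numbers did not pair the libraries: same-numbered libraries had correlations of deviations between -0.31 and 0.59 (median 0.00, 30 pairs). With the number as a block, 4 of 15 members were called for CRY against GA, beside 15.1% of genes, the fourth being KZS09348.1 (edgeR adjusted p = 0.00982). In the other 8 comparisons 0 members were called, beside 0.0% to 1.21% of genes. Members below 1 FPKM had between 18 (KZR99308.1) and 663 (KZS09340.1) counts summed over the 15 libraries, which limits firm statements on them at this depth.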
